A study of Homo sapiens with 9 samples.

Results

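Regions that were called in non-stimulated Jurkat cells pre-treated with DMSO and were not called in any of the 3 other available lists are described here. Jurkat is a clonal human T cell leukaemia line, and FAIRE-seq (formaldehyde-assisted isolation of regulatory elements) recovers nucleosome-free, accessible DNA. The series holds 9 samples with 1 library each. Non-stimulated (NS), stimulated (ST), stimulus-withdrawn (SW) and re-stimulated (RS) cells were each pre-treated with DMSO, the solvent control, or with 15 µM rottlerin, a protein kinase C inhibitor, and total input DNA was the ninth sample. Stimulation was with PMA and ionomycin for 4 h per the labels, SW cells were then washed and rested for 1 day, and RS cells received the stimulus again. Peak lists of 4 samples were analysed, labelled NS DMSO, SW DMSO, NS rottlerin and SW rottlerin, and the remaining 5 were not used. After peaks that overlapped or touched were joined, 40703 regions on the autosomes, X and Y remained, of which 18920 had a peak in the NS DMSO list. Of these, 3187 (16.8%, 95% Wilson interval 16.3–17.4) had a peak in that list alone and are called NS-only regions.

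The peaks themselves chose the NS-only regions, so their presence, score and fold enrichment in the NS list are given as a description and carry no test. With 1 library per list no difference can be set against a spread between replicates, no p-value is given, and the intervals cover counting error over regions alone. In a bulk library a site that is open in fewer cells and a site that is less open in each cell cannot be told apart. The identity of the other 3 lists is also uncertain. The study's methods describe peak calling on DMSO samples of all 4 states and a pooled total. Merging the 4 lists analysed here over all contigs gave 40731 regions, which equals that total. The lists labelled SW DMSO, NS rottlerin and SW rottlerin may therefore be those of ST, SW and RS cells after DMSO, and they are named below by their labels only. The NS DMSO label is contradicted by neither reading. Of 10 T cell markers, 5 (CD3D, CD3E, CD3G, CD28 and LCK) had an NS region within 1 kb of a transcription start site (TSS), against 1 of 6 B cell markers (CR2), 0 of 6 myeloid markers and 1 of 4 hepatocyte markers (TTR). The listed T cell markers without one were CD2, CD5, CD7, ZAP70 and TAL1. CD3D, CD3E and CD3G are neighbouring genes, and the regions at CD3G and TTR were NS-only.

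Developing T cells are governed by a small set of transcription factors that bind enhancers, most of which lie in introns or between genes. E proteins, the basic helix-loop-helix factors TCF3 and TCF12, bind sequences called E-boxes and prefer CACCTG, which reads CAGGTG on the other strand. They drive the genes for the pre-T cell receptor, for recombination of receptor genes and for CD3. ID proteins hold E proteins off DNA, whereas ZEB and SNAI repressors bind the same sequence. RUNX factors act beside E proteins at many T cell enhancers. AP1 and NFAT are the main factors brought to DNA by PMA and ionomycin.

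The sequences of 5 NS-only regions show the features on which the values below turn. They were chosen as high-scoring CACCTG-bearing regions near genes of T cell biology, or as high-scoring regions with several copies of CACCTG. Each is read from the plus strand of GRCh37 (Hg19), whole or as its central 300 bases, without bases in exons. Capitals mark CACCTG or its reverse complement.
RAG1 upstream region, chr11:36588331-36588515: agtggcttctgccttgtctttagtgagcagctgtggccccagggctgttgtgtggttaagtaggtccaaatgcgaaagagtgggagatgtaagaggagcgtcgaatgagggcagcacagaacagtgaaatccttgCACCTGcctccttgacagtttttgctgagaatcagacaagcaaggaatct
IL7R downstream region, chr5:35899986-35900282: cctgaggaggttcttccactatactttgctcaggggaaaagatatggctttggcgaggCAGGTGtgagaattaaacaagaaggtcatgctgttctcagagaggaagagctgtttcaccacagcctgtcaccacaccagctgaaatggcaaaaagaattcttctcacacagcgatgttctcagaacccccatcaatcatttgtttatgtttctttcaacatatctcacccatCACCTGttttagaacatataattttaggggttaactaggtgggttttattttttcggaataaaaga
IKZF3 upstream region, chr17:38048529-38048733: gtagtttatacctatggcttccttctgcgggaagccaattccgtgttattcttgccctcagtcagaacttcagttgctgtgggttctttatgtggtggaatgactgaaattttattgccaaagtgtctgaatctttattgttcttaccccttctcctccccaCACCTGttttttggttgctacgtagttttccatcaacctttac
FBXL12 neighbour, chr19:9919552-9919851: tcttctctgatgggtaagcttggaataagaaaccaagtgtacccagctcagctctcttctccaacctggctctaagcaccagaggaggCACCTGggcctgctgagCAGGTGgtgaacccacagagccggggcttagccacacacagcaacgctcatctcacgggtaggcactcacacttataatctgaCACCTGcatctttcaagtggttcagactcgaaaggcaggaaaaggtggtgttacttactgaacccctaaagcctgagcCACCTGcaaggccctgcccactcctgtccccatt
DAAM2 intron, chr6:39848360-39848659: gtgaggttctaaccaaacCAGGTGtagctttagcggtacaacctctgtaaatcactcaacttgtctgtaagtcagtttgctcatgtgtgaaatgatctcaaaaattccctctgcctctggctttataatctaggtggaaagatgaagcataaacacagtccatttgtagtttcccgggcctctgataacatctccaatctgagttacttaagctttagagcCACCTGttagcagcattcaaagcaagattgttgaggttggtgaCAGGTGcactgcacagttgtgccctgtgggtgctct
The FBXL12 neighbour holds 4 copies of the sequence, the DAAM2 intron 3 and the IL7R region 2. The RAG1 and IKZF3 regions hold 1 copy each.

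NS-only regions were weaker and narrower than other NS regions. Each peak carries a score, which is 10 times the −log10 of its q-value without decimals, and a fold enrichment over total input. The NS-only regions had a median score of 32, with an interquartile range of 18 to 46 and a maximum of 171. Regions in another list alone had similar median scores in that list, 29 for SW DMSO, 32 for NS rottlerin and 31 for SW rottlerin. The 15733 NS regions with a peak in another list had a median score of 65. The median rose with the number of other lists, from 39 with 1 to 44 with 2 and 82 with all 3. The fold enrichment differed less, with a median of 3.57 in NS-only regions and 4.18 in the others. The median width was 226 bp against 394 bp, and the NS-only regions together covered 0.946 Mb. Widths are those of merged regions. The other NS regions include the peaks of other lists, so part of this difference is built in.

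**Figure D1:**
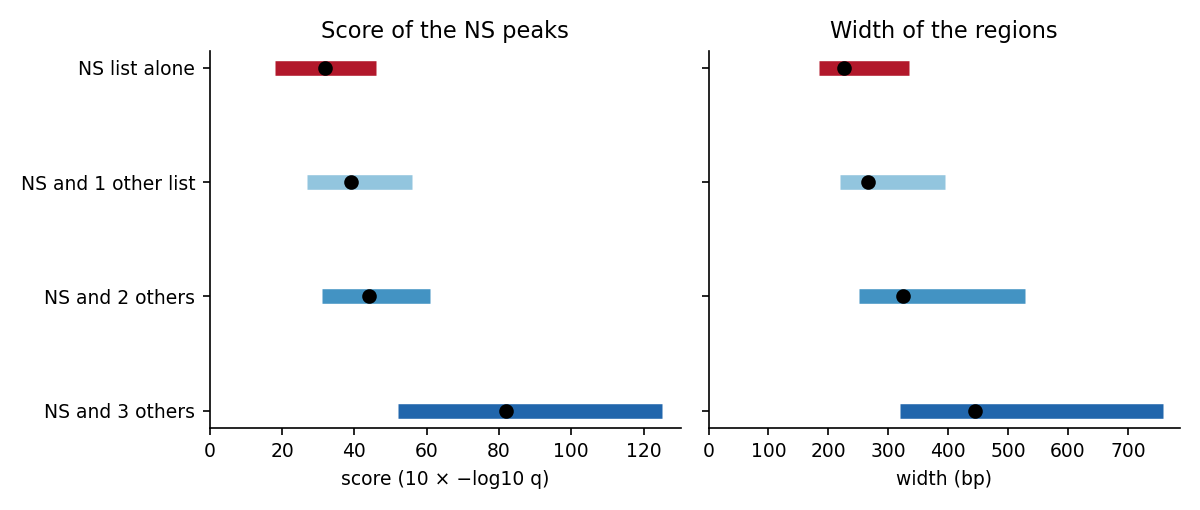
Score of the NS peaks (left, 10 × −log10 q) and width of the merged regions (right, bp) for NS regions grouped by the number of other lists with a peak, with the median as a point and the interquartile range as a bar. Regions in the NS list alone sit lowest on both axes, with medians of 32 and 226 bp. Widths of the other groups include the peaks of other lists.

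Weak peaks were over-represented among NS-only regions. Of the NS regions with a score under 20, 56.7% were NS-only, whereas of those with a score of 100 or more 0.956% were. Among NS-only regions 876 (27.5%) scored under 20, 420 exceeded the NS list's median score of 57, and 41 scored 100 or more. Whether the weak regions would have a peak in another list at greater depth was not tested, since depth is unknown from a peak list. In position, the regions were seldom at the edge of the rule. The distances that follow are to called peaks and do not show signal below the calling cut-off. The nearest peak of another list lay at a median of 15360 bp, 149 regions (4.68%) had one within 1 kb, and 591 (18.5%) had none within 50 kb. Just inside the rule, the smallest gap to another list's peak was 9 bp. Just outside it, 9 NS peaks were covered by another list over only 1 to 20 bp.

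The NS-only regions lay away from promoters. Introns held 62.5% of them (60.8–64.2) and intergenic sequence 18.3% (17–19.7), together 80.8% (79.4–82.1) against 57.5% in other NS regions. Promoters, taken as 1 kb before a TSS, held 2.23% (1.77–2.80) against 16.6% (16.0–17.2). When a promoter took precedence over gene parts, the NS-only share was 8.6%, and when only the higher-scoring 50% of peaks per list were used it was 4.91%. The 5′UTR share was 1.10% against 10.0%. The nearest TSS lay at a median of 8025 bp, against 937 bp for other NS regions. The nearest TSS of a protein-coding gene lay at 25948 bp against 3903 bp, and 1054 NS-only regions (33.1%) lay more than 50 kb from any such TSS, against 17.7%. Their central 300 bp were also poorer in G and C, with a median of 43.3% against 52.0%, and held a median of 3 CpG dinucleotides against 8. Regions in another list alone had similar values. Introns and intergenic sequence held 82.5% of them for the list labelled SW DMSO, 79.1% for NS rottlerin and 78.5% for SW rottlerin. In the same order, their nearest TSS lay at medians of 7452, 7061 and 6504 bp, and their median GC contents were 41%, 43.7% and 44%.

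**Figure D2:**
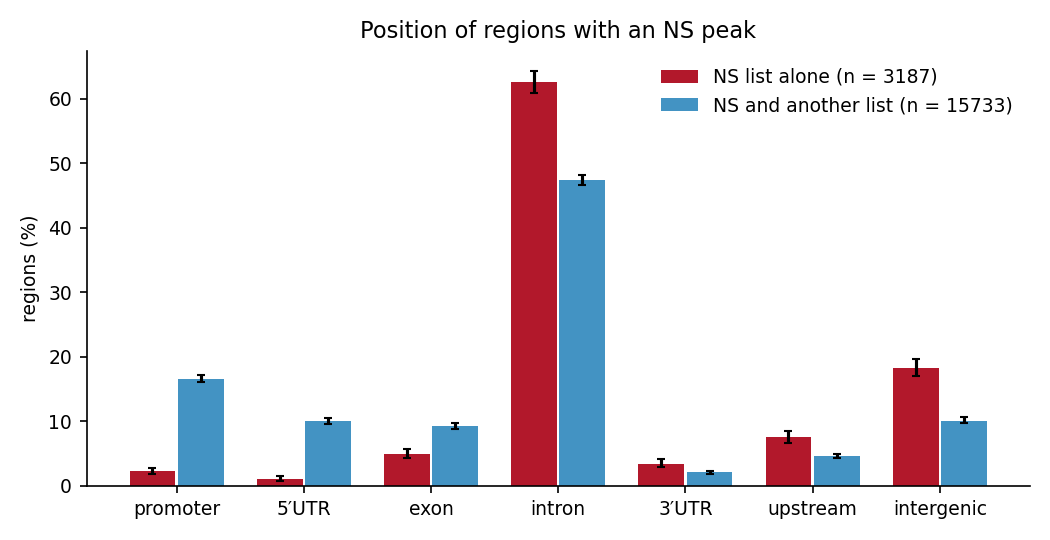
Share of regions (%) in each position for the 3187 regions in the NS list alone and the 15733 NS regions with a peak in another list, with 95% Wilson intervals as error bars. Introns and intergenic sequence hold more of the regions in the NS list alone (62.5% and 18.3%), and promoters fewer (2.23% against 16.6%).

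The share of NS regions that were NS-only was uneven between chromosomes. It was lowest on chromosome 19 (6.68%, 5.23–8.51) and chromosome X (9.79%, 7.22–13.2). It was highest on chromosome 13 (24.4%, 21.0–28.3), chromosome 18 (23.4%, 19.1–28.2) and chromosome 3 (22.1%, 19.8–24.4). DNA copy number in these cells was not measured here.

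The E protein sequence was more frequent in NS-only regions than in any other group of regions. CACCTG was found in the central 300 bp of 1269 NS-only regions (39.8%, 38.1–41.5), against 22.4% (21.7–23) of other NS regions and 18.0% (17.5–18.5) of the 21783 regions that lack a peak in the NS DMSO list. The share followed the number of other lists. It was 31.9% with 1 other list, 24.5% with 2 and 20% with all 3. Regions that the same rule picks from another list held it less often, 23.9% in the list labelled SW DMSO, 17.5% in NS rottlerin and 17.1% in SW rottlerin. The same 6 bases in reversed order, GTCCAC, were found in 6.24% (5.46–7.14) of NS-only regions and 6.74% (6.36–7.15) of other NS regions, shares whose intervals overlap. At least 2 copies of CACCTG were held by 343 NS-only regions (10.8%) against 2.89% of other NS regions, and at least 3 by 60 (1.88%) against 0.286%.

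The share was higher in NS-only regions at every base composition. With a GC content of 45 to 50%, CACCTG was found in 54.7% of NS-only regions and 27.6% of other NS regions. With 55% or more the shares were 62.3% and 21.7%. The smallest difference was seen under 40%, at 17% (14.9–19.3) and 13.6% (12.2–15.0), where the intervals overlap. Among the 206 NS-only regions within 1 kb of a coding TSS, 86 (41.7%) held CACCTG, against 18.3% of the 6746 other NS regions so placed. More than 1 kb from any TSS the shares were 39.3% (37.5–41.2) and 25.4% (24.5–26.4).

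CACCTG became more frequent as the NS-only regions became stronger. It was found in 21.9% (19.3–24.8) of those with a score under 20, in 43.7% (41.3–46.1) of those with 20 to 49, in 50.5% (46.2–54.7) of those with 50 to 79, and in 90 of 134 (67.2%, 58.8–74.5) with 80 or more. Other NS regions stayed between 17.2% and 23.8% over the scores. In the regions of each other list alone the share stayed between 11% and 31.7%. Those with a score of 80 or more held it in 5 of 19 (26.3%) for SW DMSO, 8 of 73 (11%) for NS rottlerin and 28 of 207 (13.5%) for SW rottlerin. The weakest NS-only regions differed in other ways too. Those with a score under 20 had a median width of 348 bp and a GC content of 36.3%, against 223 bp and 47.3% for a score of 50 or more.

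**Figure D3:**
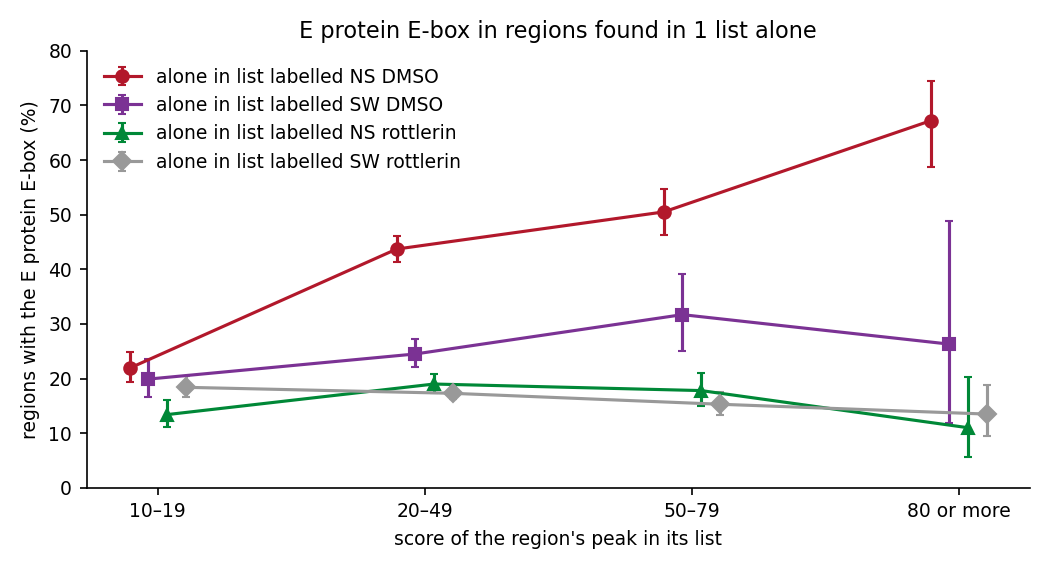
Share of regions (%) with the E protein E-box CACCTG by the score of their peak, for regions found in 1 list alone, with 95% Wilson intervals. The share in the NS DMSO list rises from 21.9% to 67.2%, and the other 3 lists stay between 11% and 31.7%.

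The copies of CACCTG gathered at the middle of the NS-only regions. Within 25 bp of the middle there were 2.11 copies per kb, at 25 to 50 bp 2.25, and in the outermost 25 bp 1.07. In other NS regions the density was flat, between 0.806 and 0.904 copies per kb at all distances. The profiles are not on equal terms, since the median width was 226 bp for NS-only regions and 394 bp for the others. In most NS-only regions the outermost 25 bp of the window therefore lay outside the region. The bases beside the sequence also differed. Read as CAGGTG, it was followed by A in 12.3% of copies in NS-only regions and by T in 30.2%, against 20.5% and 21.4% in other NS regions. The base before it was T in 11.9% against 17.1%. The other E-box forms leaned the same way by less, with CAGCTG in 23.9% (22.4–25.4) against 18.1% and CATCTG in 26.2% against 18.8%.

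RUNX sequences were also frequent, but their excess over other NS regions depended on position. TGTGGT or TGCGGT was found in 50.6% (48.8–52.3) of NS-only regions and 38.1% (37.3–38.8) of other NS regions, and in 48.7% (46.5–50.8) of NS regions with 1 other list. More than 1 kb from any TSS the shares were alike, at 51.8% (49.9–53.7) and 52% (50.9–53.2), and within 1 kb they were 43.3% and 24.3%. Under 40% GC the order turned, with 39.9% (37.1–42.8) in NS-only regions and 47.7% (45.7–49.7) in the others. At scores under 20 the shares were 34% (31–37.2) and 38.7% (35–42.4). Among NS-only regions the share rose to 64.9% (56.5–72.5) at scores of 80 or more, where it was 33% (31.9–34.2) in other NS regions. Within the NS-only regions it was found in 55.9% (53.1–58.6) of those with CACCTG and 47.1% (44.9–49.3) of those without. Both sequences were present in 709 NS-only regions (22.2%) against 9.41% of other NS regions, and in 62 of the 134 with a score of 80 or more (46.3%).

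The sequences of other factors were less marked or ran the other way. ETS sequences (CCGGAAG or CAGGAAG) were found in 15.0% (13.8–16.3) of NS-only regions against 26.1% of other NS regions. The shares were 14.8% (13.5–16.2) and 23.7% (22.8–24.7) more than 1 kb from any TSS, and 16.3% and 28.5% within 1 kb. The CTCF sequences AGGGGGC and AGGTGGC were found in 12.5% against 18.0%, and the second of them overlaps CAGGTG in part. TCF/LEF sequences (CTTTGAA or CTTTGAT) were found in 17.3% against 12.2%, MYB sequences (CNGTTA) in 33.8% against 27.1%, and GATA sequences (AGATAA or TGATAA) in 31.9% against 23.8%. The TCF/LEF and GATA shares were not compared at equal base composition. In regions without an NS peak they were 16.7% and 37%. In regions alone in the lists labelled SW DMSO, NS rottlerin and SW rottlerin the GATA share was 28.6%, 40.5% and 40%. The stimulation-induced factors were not favoured. AP1 sequences (TGANTCA) were found in 6.31% (5.51–7.20), against 9.34% of other NS regions and 25.8% of regions without an NS peak. NFAT sequences (TGGAAA) were found in 23.4%, against 22% and 32.9%. All matches are on either strand and describe letters only.

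**Figure D4:**
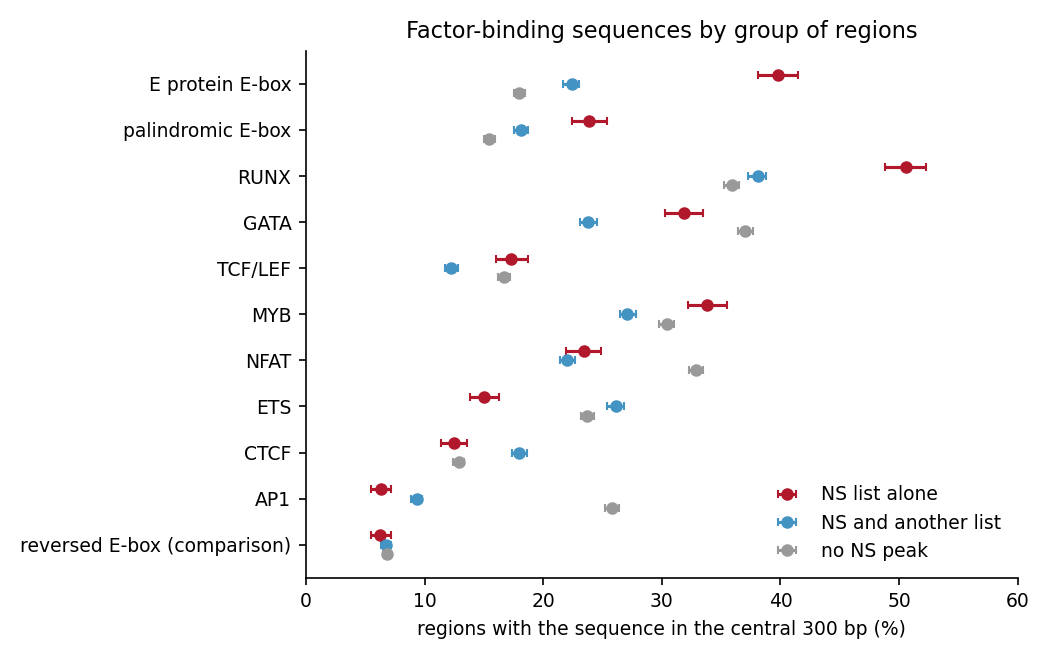
Share of regions (%) with each factor's sequence in their central 300 bp, for regions in the NS list alone, NS regions with a peak in another list, and regions without an NS peak, with 95% Wilson intervals. The E protein E-box (39.8%) and RUNX (50.6%) lie highest in the NS list alone, although RUNX is alike in NS regions of both groups over 1 kb from a TSS (51.8% and 52%), AP1 (25.8%) and NFAT (32.9%) without an NS peak, and the reversed E-box lies between 6.24% and 6.86% in all groups.

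Most of the highest-scoring NS-only regions held CACCTG. The strongest, with a score of 171 and a fold enrichment of 6.06, lay on chromosome 20 from 55251104 to 55251376, between genes and 46.0 kb beyond the TSS of TFAP2C, which encodes an AP2 transcription factor. It held 1 CACCTG and 2 RUNX sequences. The next (153) lay 60.2 kb before KLF13, a zinc-finger factor gene, and had no other region of any list within 50 kb. The third (149) lay in an intron of DAAM2, a formin that acts on actin, and the fourth (149) in an exon of HNRNPM, a splicing factor gene. A region with 4 copies of CACCTG (142) lay between genes, 4.39 kb from the nearest TSS of FBXL12, an F-box gene.

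Scores of 139 to 129 followed. The region nearest to DRD5, a dopamine receptor gene, lay 88.8 kb from its TSS in an intron of SLC2A9, a urate transporter gene. The one nearest to FGD5 lay in an intron of C3orf20 with no other region within 50 kb and held neither CACCTG nor a RUNX sequence. The one nearest to BCL7A, a gene of a chromatin remodelling subunit, lay 15.0 kb before its TSS with 2 other NS-only regions within 50 kb. Both regions with a score of 129 lay in introns, one of the non-coding gene LINC02687, with SYT13 as the nearest coding gene, and one of MYT1L. Of these 10 regions 8 held CACCTG, and of the 30 highest-scoring 22 (73.3%) did. The eleventh, named after its values were seen, scored 123 and spanned 812 bp on chromosome 14. Its nearest coding TSS was that of BCL11B, the factor of T cell commitment, at 1073 kb downstream, and it held neither CACCTG nor a RUNX sequence.

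Few promoters held an NS-only region. Of the 19821 coding genes, 211 (1.06%) had an NS-only region within 1 kb of a TSS. The 206 regions involved were the only region of any list at the nearest gene's TSSs in 112 cases. The highest score belonged to the promoter of CD3G, one of the invariant signalling chains of the T cell receptor. This region, on chromosome 11 from 118214858 to 118215095, had a score of 106, a fold enrichment of 4.87 and its middle 82 bp before the TSS. It was the only region within 1 kb and also lay 1.56 kb before the TSS of CD3D, which is read in the opposite direction. The next promoters, named after their values were seen, were those of DIPK1A and TTPAL (89 each), CDKN2AIPNL (88) and HAUS4 (84). At DIPK1A 3 regions lay within 1 kb of a TSS, and only this one had an NS peak. The last 3 were rich in CpG, with 26 to 34 in 300 bp.

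In all, 3312 of the 19821 coding genes (16.7%) had an NS-only region within 50 kb of a TSS, or 23.3% of the 14203 genes with any NS region there. The 6 gene lists described below were denser in NS regions than coding genes as a whole, with medians of 2 to 4 NS regions per gene against 1, while the median number of NS-only regions was 0 in each list and over all coding genes. Their shares of genes are therefore read beside the shares of NS regions that were NS-only, 16.8% over the genome and 14.1% (2133 of 15087) within 50 kb of a coding TSS, where all regions of the lists lie. Genes of a list that lie side by side share regions, and each region is counted once.

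Genes of early thymocytes had the largest share. Of 19 such genes 9 (47.4%, 27.3–68.3) had an NS-only region, and 12 of their 50 NS regions (24.0%, 14.3–37.4) were NS-only, 9 of them with CACCTG. The lower limit of the interval lies beside the 14.1% of NS regions within 50 kb of a coding TSS. RAG1 and RAG2 encode the recombinase of receptor genes, lie side by side and are read towards each other. A region with a score of 61 lay 1.13 kb before the TSS of RAG1 and 27.9 kb from that of RAG2. A second with a score of 12, a q-value over 0.05, lay 22.2 kb before RAG2. DNTT, which encodes the terminal transferase that adds bases at receptor junctions, had 2 NS-only regions among 4, with scores of 53 and 48 at 9.14 and 28.8 kb into the locus. Both held 1 CACCTG, 1 RUNX and 2 GATA sequences, and no region without an NS peak lay within 50 kb. At IL7R, the interleukin-7 receptor gene, 1 of 4 NS regions was NS-only (score 70), 26.5 kb beyond the TSS with 2 CACCTG and 2 RUNX sequences. Regions without an NS peak numbered 2 each at RAG1, RAG2 and IL7R.

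Of 42 genes of the T cell receptor complex and its proximal signalling, 16 (38.1%, 25.0–53.2) had an NS-only region, and 18 of 155 NS regions (11.6%, 7.47–17.6) were NS-only. The CD3 genes led. Beside the CD3G promoter, a region with a score of 43 lay 1 kb beyond a TSS of CD3E, with 1 CACCTG and 2 RUNX sequences. Another (37) lay 44.2 kb before a TSS of CD3E. These are 3 of the 6 NS regions around CD3E, beside 6 regions without an NS peak. TXK, a Tec-family kinase gene of T cells, had both of its NS regions in the NS list alone, with scores of 64 at the promoter and 30 at 5.3 kb before the TSS. The nearest peak of another list lay 69.5 kb from the first. Within 50 kb of a further TSS of TXK lay 2 regions without an NS peak. Neither region held CACCTG.

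Of 34 genes of T-lineage and T-leukaemia transcription regulators, 14 (41.2%, 26.4–57.8) had an NS-only region, and 23 of 137 NS regions (16.8%, 11.5–23.9) were NS-only, an interval that includes 14.1%. RUNX1 had 5 of 17, with scores of 16 to 80. All lay in introns, but the one with a score of 56 lay outside RUNX1, 26.1 kb before its TSS. TCF7, which encodes the Notch-induced factor TCF1, had 3 of 9. One lay 36.3 kb before the nearest of its TSSs (58, with 2 CACCTG and 3 RUNX sequences). Another lay in an intron, 0.884 kb before a different TSS of the gene (34, with 2 CACCTG). IKZF3, the gene of the Ikaros-family factor Aiolos, had 2 of 8, the stronger (59) at 28.1 kb before the TSS. ETS1, the gene of a T cell ETS factor, had 2 of 11 (56 and 32), neither with CACCTG. Regions without an NS peak numbered 8 at RUNX1, 3 at TCF7, 7 at IKZF3 and 5 at ETS1. Among the genes of the bHLH, ID and ZEB/SNAI factors themselves, 7 of 22 (31.8%, 16.4–52.7) had an NS-only region, and 10 of 64 NS regions (15.6%, 8.71–26.4) were NS-only. The count of genes was 3 when only the higher-scoring 50% of peaks per list were used and 4 at a distance of 25 kb. TCF12 had 3 of 10, and the strongest (65) lay at its TSS. ID1, whose product blocks E proteins, had 2 of 7, with scores of 17 and 40. MAX, the partner of MYC, and MXI1, which competes with MYC for MAX, had 1 each (45 and 39). Regions without an NS peak numbered 8 at TCF12, 4 at ID1, 1 at MAX and 5 at MXI1.

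Activation-induced genes had the smallest share. Of 50 such genes, which encode cytokines, early transcription factors and receptors, 7 (14%, 6.95–26.2) had an NS-only region. Of their 117 NS regions 9 (7.69%, 4.10–14) were NS-only, with the upper limit at about the 14.1% of NS regions within 50 kb of a coding TSS. The count of genes was 2 when only the higher-scoring 50% of peaks per list were used and 13 at a distance of 100 kb. No promoter was among them. NR4A1, an early nuclear receptor gene, had 2 of 7 NS regions in the NS list alone (51 and 43) beside 6 regions without an NS peak. BIRC3, an apoptosis inhibitor gene, had 2 of 5 (40 and 35) beside 5. The chemokine gene XCL1 had 1 of 2 (51) and CD40LG, the ligand of CD40, 1 of 8 (50) beside 9 regions without an NS peak. All of these but the XCL1 region held CACCTG.

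Homing and adhesion receptors had an NS-only region at 11 of the 27 genes found in the annotation (40.7%, 24.5–59.3), and 14 of 91 NS regions (15.4%, 9.39–24.2) were NS-only. CXCR4, the chemokine receptor of thymocytes and marrow homing, had 2 of 6. Their scores were 45 at 0.075 kb before a TSS and 61 at 12.5 kb before a different TSS. CD226, a co-stimulatory adhesion receptor gene, had 2 of 5 (18 and 24). CCR8 had 2 of 4 (13 and 19). Regions without an NS peak numbered 1 at CXCR4, 5 at CD226 and 4 at CCR8. The strongest (95) lay in an intron 33.5 kb beyond the TSS of the chemokine receptor gene CXCR6.

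The largest numbers of NS-only regions per gene were found in long genes. TBC1D5, a regulator of endosome traffic whose gene spans 1288 kb, held 7 among 23 NS regions in its body and the 10 kb before it, and RUNX1 6 among 26. At other genes the part of the NS regions that were NS-only ranged from 26.3% to 62.5%. It was 6 of 11 at IGF1R, the insulin-like growth factor receptor gene, with 4 of the 6 holding CACCTG. The count was also 6 of 11 at the unnamed gene ENSG00000285253, which ends beside TCF12, 5 of 8 at IQSEC1 and 5 of 9 at RNLS. FOXN3, a forkhead factor gene, held 5 of 10, SRPK2, a splicing kinase gene, 5 of 11, and the sulphotransferase gene CHST11 5 of 19. The integrin gene ITGA9 held 4 of 7, all with a RUNX sequence. Of the genes with 3 or more NS regions within 50 kb of a TSS, all were NS-only at VOPP1 (4 of 4), AGPS and BEND3 (3 of 3 each), genes named after their values were seen.

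Most NS-only regions lay singly. Another NS-only region lay within 50 kb of 741 of them (23.3%), whereas 66.3% of other NS regions had another of their own kind within that distance. The latter group is the larger, so the shares are not on equal terms. Regions joined by gaps of up to 50 kb formed 328 chains of 2 or more, 65 of 3 or more and 4 of 5 or more. The longest, of 8, spanned 83.4 kb on chromosome 2 from 57843058 to 57926452, held no coding gene and lay 208 kb from the nearest coding TSS, that of VRK2. It held 8 of the 9 NS regions there, with scores from 14 to 51, and 5 of the 8 scored under 20. Only 3 held CACCTG.

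The chain at MYT1L, a gene of a neuronal zinc-finger factor, was of another kind. It held 5 NS-only regions over 70.5 kb among 7 NS regions, with scores of 31 to 129, and 4 of the 5 held CACCTG. The chain at CHST11 held 5 of 12 NS regions, with scores of 13 to 59. The chain across AK8, SPACA9 and TSC1, the last a gene of an mTOR-restraining complex, held 5 of 6, with scores of 22 to 42, and all 5 held a RUNX sequence. The chain across KLC4, PTK7, SRF and CUL9 held 4 of 8, with scores of 34 to 95. SRF encodes the serum response factor.

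**Figure D5:**
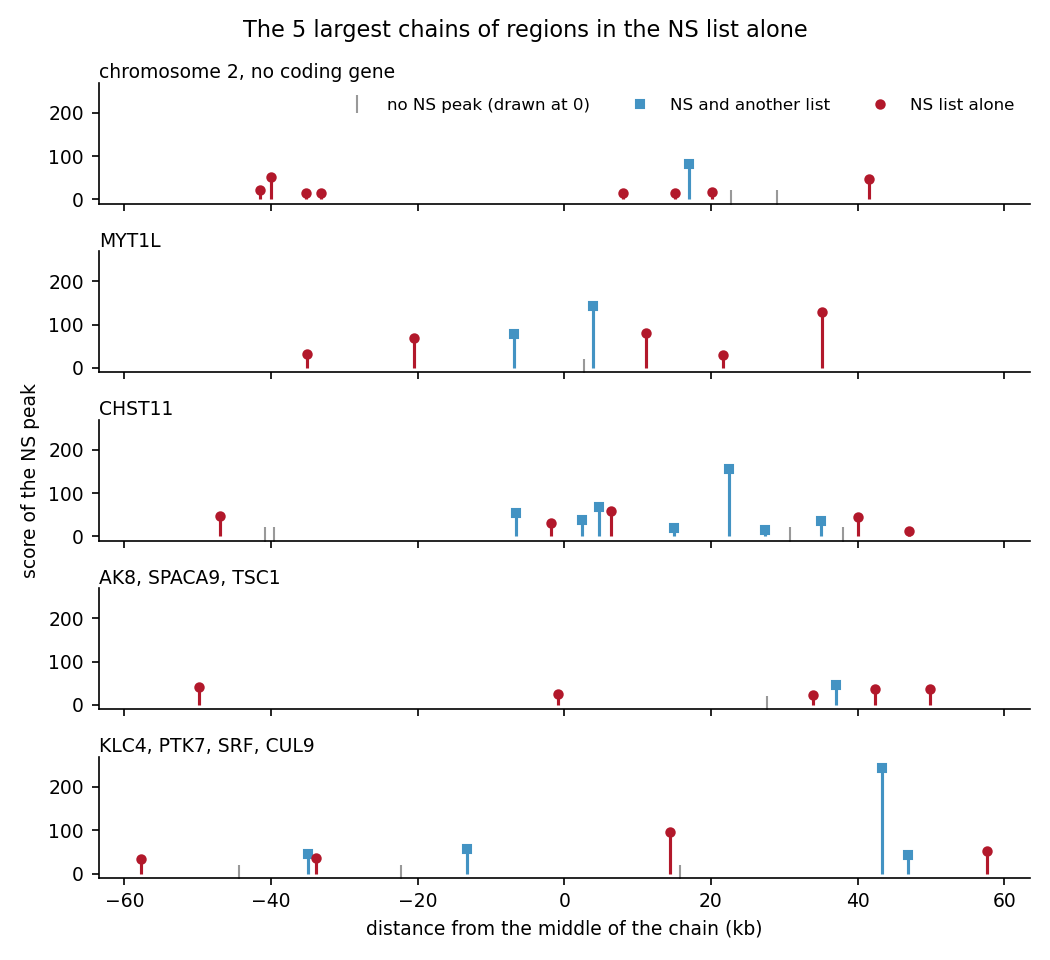
Score of the NS peak (10 × −log10 q, vertical) by distance from the middle of the chain (kb, horizontal) for all regions in the 5 largest chains of regions in the NS list alone, with regions without an NS peak as ticks at 0. Scores of the regions in the NS list alone stay at or below 51 in the chain without a coding gene and reach 129 at MYT1L, and regions shared with other lists lie between those in the NS list alone in all 5 chains.

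The neighbourhood of the NS-only regions was mixed. Within 50 kb, 66% of them had a region without an NS peak, 60.5% had an NS region shared with another list, and 18.8% had neither. The corresponding shares around other NS regions were 72.4%, 66.3% and 12.8%.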

How the data were processed

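FAIRE-seq peak lists of 4 Jurkat libraries were used. According to the methods, reads were trimmed (CutAdapt), aligned to Hg19 (Bowtie2) and freed of duplicates (Picard), and MACS2 with its Broad option then called peaks in DMSO samples against total input. How peaks were called in rottlerin samples is not given in the sources used here. For each peak the authors deposited a score, a fold enrichment (a ratio to input) and −log10 values of p and q. Depth is unknown from them. Peaks that overlapped or touched were merged across lists. Each mid-point was given the first of these that applied in GENCODE release 44 (GRCh37), namely 5′UTR, 3′UTR, exon, intron, promoter (up to 1 kb before a TSS), upstream (up to 10 kb) and intergenic. Motifs were sought on both strands in the central 300 bp. Genes named were those nearest to the 10 highest-scoring regions, the 10 with most regions, those of the 5 largest chains, and up to 4 per gene list. Exceptions are marked in the text. Loci on chromosome 8 were counted and not named. A few further results are not reported here. The regions and lists were chosen with earlier results of these data known. Scripts were tested on simulated data and used Python 3.11.15 with numpy 2.4.6, pandas 2.3.3, pysam 0.24.0 and matplotlib 3.10.9, and samtools 1.23.1.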

Additional observations from a re-analysis of the deposited data

How the results depend on the processing

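A total of 16 alternatives were tried. The CACCTG share stayed above that of other NS regions under the 10 alternatives that gave both, by 15 to 24.2 percentage points. The 24.2 points belong to a score cut of 20 that was applied to NS-only regions and not to the other NS regions. The other results were recomputed for NS-only regions alone. Of 61 alternative values of the 6 main results, 38 stayed within the interval of the value given, or within 1.5 times of it for a count. When each list was reduced to its higher-scoring 50%, 1325 NS-only regions were found, of which 76.4% lay in introns or intergenic sequence, with a median TSS distance of 5743 bp. CACCTG was found in 44% of them, 15.1% had a neighbour and 1763 genes lay near them. With the same number of highest-scoring peaks in every list, the distance was 7358 bp, the CACCTG share 37.7% and the share with a neighbour 30.5%. When the list labelled SW DMSO, NS rottlerin or SW rottlerin was ignored, the share with a neighbour was 27.3%, 27.7% and 27.4%. Ignoring the last also gave a distance of 7382 bp and a CACCTG share of 37.8%. With NS-only regions scoring 20 or more, an alternative chosen after seeing the data, CACCTG was found in 46.6% and 19.3% had a neighbour. Placing promoters first gave 76.1% in introns or intergenic sequence. A central 500 bp gave CACCTG in 49.1%. Cluster distances of 25 and 100 kb gave 14.3% and 36.5%, gene distances of 25 and 100 kb gave 1980 and 5356 genes, and the TSS of coding genes only gave a median of 25948 bp. No paired analysis was possible because each list holds 1 library and no test was made. Depth is unknown, so a region without a peak is one not called at that library's depth.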
